A study of Caenorhabditis elegans with 3 samples.

Results

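The cytochrome P450 genes of Caenorhabditis elegans were compared between adult hermaphrodites and a mixed wild-type reference RNA. They were taken as all genes whose symbol starts with cyp and a number, plus daf-9, on array probes that the platform annotation gives to exactly 1 gene. This gave 68 genes, each on 1 probe, out of 15168 genes on such probes. A further 3 probes list a P450 gene together with another gene and were left out. Of the 81 P450 genes that RefSeq lists for WBcel235, the reference assembly of the worm, 13 have no value here, among them the whole cyp-31A subfamily. The member cyp-34A3 is annotated there as a pseudogene.

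The samples were 3 worm preps of adults, read from the labels as carrying embryos, each hybridised on its own 2-colour array. The labels give no strain or genotype for the adults, leave the code TP11 unexplained, and describe the reference only as mixed wild-type mRNA. Separate cultures are not stated for the preps, and the spread behind the p-values may be technical only. A positive log2 ratio was taken as more RNA in the adults because the labels list the reference first and the adult RNA second. The dyes are not named, so the direction is likely but unsettled. Every "higher" and "lower" rests on it. RNA came from whole animals, so fewer cells of a type and less RNA per cell cannot be told apart.

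Cytochrome P450 enzymes are heme proteins that insert an oxygen atom into fats, steroids and foreign compounds, and most take their electrons from an NADPH-dependent reductase in the endoplasmic reticulum. In worms many P450 genes are expressed in the intestine and are induced by foreign compounds. Others make signalling molecules: daf-9 carries out the last oxidation in the synthesis of dafachronic acids, the steroid hormones that choose between reproductive growth and the dauer larva. Symbols give a family number and a subfamily letter by sequence similarity, so cyp-35A2 and cyp-35A3 are closer to each other than either is to cyp-33C7.

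The P450 genes did not move as 1 group. A small set around the cyp-35A subfamily was higher in the adults, from 1.44-fold for cyp-35A1 to 8.73-fold for cyp-35C1. A larger set led by cyp-33E1, cyp-13A1 and cyp-37B1 was lower, and most genes lay near the reference. Of 67 genes with a value on all 3 arrays, 9 were higher and 14 lower past an adjusted p of 0.05 in limma, and 44 did not pass. Among all 19710 probes tested, 15.8% were higher and 16.1% lower, or 31.9% in either direction. The members' shares of 13.4% higher, 20.9% lower and 34.3% in all are near that background. At a ratio of at least 2-fold, 5 members (7.46%) were higher and 6 (8.96%) lower, against 5.6% and 6.72% of all probes. The median log2 ratio of the members was -0.08, against 0.00 for all probes, and the quartiles of the members were -0.39 and 0.25, against -0.32 and 0.31. The sign was the same on all 3 arrays for 43 of the 67 members (64.2%), against 60.9% of all probes. It was the same for all 23 members past the threshold, but these were picked by a test on the same values.

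The 9 higher genes were divided unevenly: 6 of them belong to the cyp-35A and cyp-35C subfamilies, which have the highest means here. Without those subfamilies 3 of 61 genes were higher and 14 lower, beside 15.8% and 16.1% of all probes. The subfamilies were picked by these same values, so the smaller count of higher genes follows from that choice. The number of higher P450 genes was 5 without prep 3, 7 without prep 1 and 6 without prep 2. The 6 include cyp-13A10, which is not among the 9, so fewer than 6 of the 9 kept their call without prep 2. The plot shows all members by array. The median size of their mean log2 ratios was 0.326, against 0.313 for all probes.

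**Figure D1:**
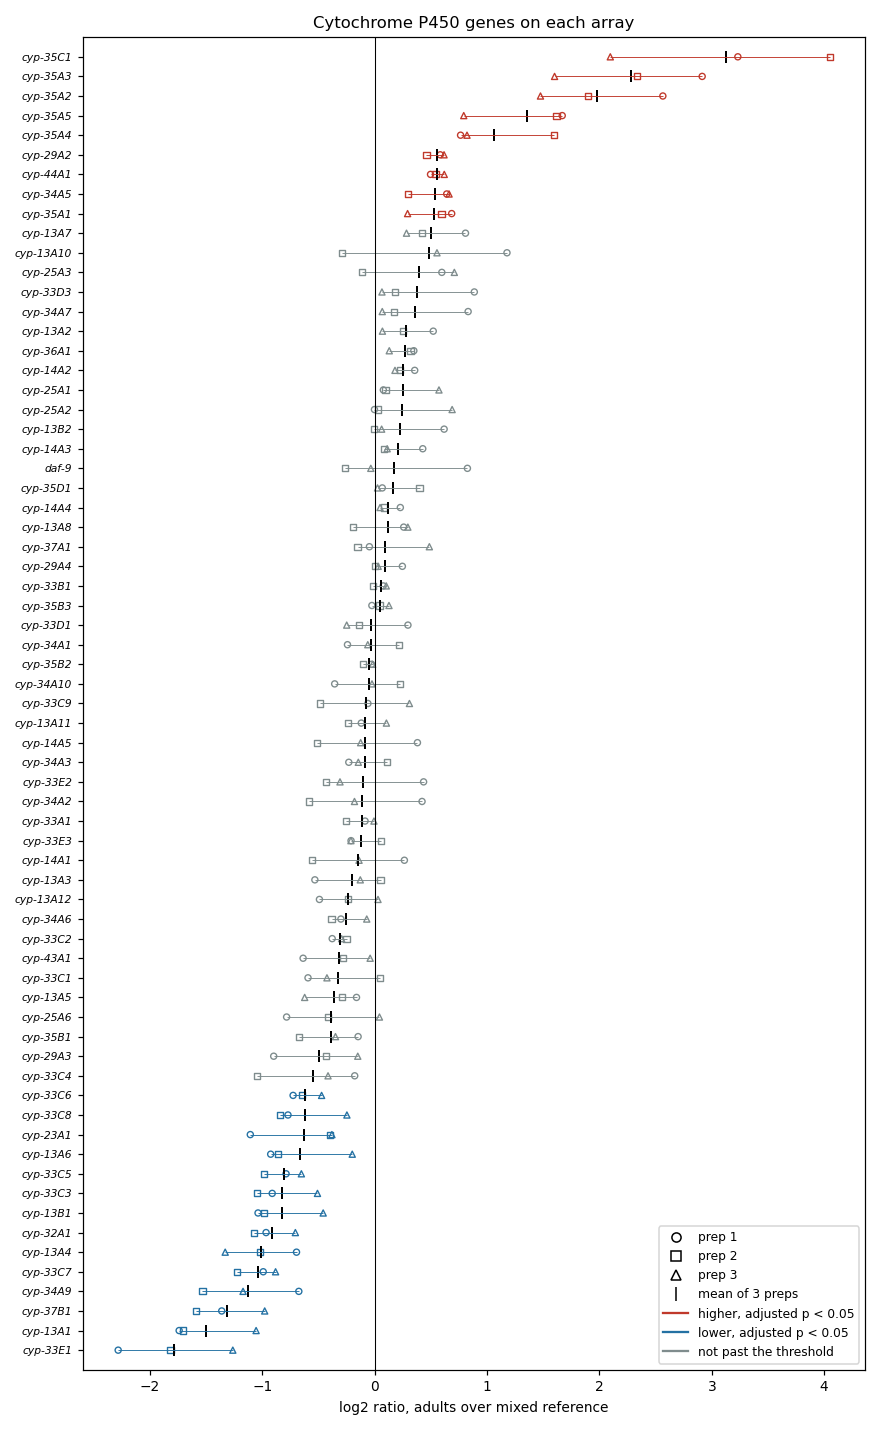
Log2 ratio (adults over mixed reference, horizontal axis) of the 67 P450 genes with a value on all 3 arrays, ordered by their mean. Open symbols are the preps, black ticks the mean, lines the range over preps, and colours the call in limma; cyp-35C1 stands at the top with a mean of 3.13 and cyp-33E1 at the bottom with -1.79.

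The 3 arrays differed in spread, with robust SDs over all probes of 0.770, 0.483 and 0.368 on preps 1, 2 and 3. The size of a member's ratio was largest on prep 1 for 34 of the 67 genes, on prep 2 for 20 and on prep 3 for 13. Across the 67 genes, which share arrays and are not independent, the preps correlated with a Pearson r of 0.867 (preps 1 and 2), 0.856 (1 and 3) and 0.888 (2 and 3). Lists of stage and tissue markers moved as follows. Yolk, oocyte and eggshell genes were higher for 10 of 14 (median 1.46), with the yolk receptor gene rme-2 highest at 2.45 ± 0.74 (SD, n = 3). Of 8 neuronal markers 7 were lower (median -1.61), with flp-1 lowest (-3.42 ± 0.44). Of 10 moulting markers 6 were lower (median -0.80), with rol-8 lowest (-4.73 ± 0.44). With the sign of the ratio turned, the 10 yolk, oocyte and eggshell genes would be lower in the adults and the 6 moulting genes higher. A further 4 genes of the yolk, oocyte and eggshell list and 4 of the moulting list did not pass. Their means lay on both sides of 0 in each list. Among all 15090 genes, 16.1% were higher and 17.8% lower. Intestinal markers, the tissue of many P450 genes, went both ways, with 2 of 13 higher and 3 lower (median -0.24), or 5 lower without prep 1. The P-glycoprotein gene pgp-1 (1.73 ± 0.81) and the metallothionein gene mtl-1 (-2.25 ± 0.20) were at the ends, while elt-2, the intestinal GATA factor, stood at -0.24 ± 0.17. The part of tissue content in the P450 values was not tested.

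The highest member was cyp-35C1, a gene known to be induced by foreign compounds. Its log2 ratios were 3.23, 4.05 and 2.10 on preps 1, 2 and 3, a mean of 3.13 ± 0.98 (SD, n = 3) or 8.73-fold (adjusted p = 4.04e-05 in limma). It ranked 14, 5 and 34 from the top among the 19710 probes of each array. No other member reached its lowest array value of 2.10 on all arrays. In units of each array's robust SD it stood at 4.19, 8.39 and 5.70, so prep 2 gave its largest value on either scale.

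All 5 cyp-35A genes were higher. These genes are known for induction by foreign compounds and for effects on intestinal fat stores. The gene cyp-35A3 had log2 ratios of 2.91, 2.34 and 1.60 (mean 2.28 ± 0.66, 4.87-fold, adjusted p = 6.78e-05 in limma). For cyp-35A2 they were 2.56, 1.90 and 1.47 (mean 1.98 ± 0.55, 3.95-fold, adjusted p = 9.47e-05 in limma). Both lay at or above 1.47 on every array and were highest on prep 1. In units of each array's robust SD prep 1 gave the lowest value of both. On that scale cyp-35A3 stood at 3.78, 4.84 and 4.35, and cyp-35A2 at 3.33, 3.94 and 4.01.

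The other 3 cyp-35A genes were less far from the reference. The ratios of cyp-35A5 were 1.67, 1.62 and 0.79 (mean 1.36 ± 0.49, adjusted p = 0.000684 in limma), lowest on prep 3. Those of cyp-35A4 were 0.76, 1.59 and 0.82 (mean 1.06 ± 0.46, adjusted p = 0.00257), and only prep 2 lay above 1. The lowest was cyp-35A1 at 0.68, 0.59 and 0.29 (mean 0.52 ± 0.21, adjusted p = 0.0417). The gene cyp-35A1 missed the threshold with prep 1, prep 2 or prep 3 left out (adjusted p = 0.0831, 0.191 and 0.0833 in limma), so 4 of 5 cyp-35A genes were higher then. The values of cyp-35A1 did not overlap those of any other cyp-35A gene. The subfamily mean was 1.72, 1.61 and 1.00 on preps 1, 2 and 3. Probes of near-identical subfamily members can bind each other's transcripts, and this was not analysed here, so the values of single members are uncertain.

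The other genes of the number 35 family did not share this. The cyp-35B genes had means of -0.39 ± 0.27 for cyp-35B1, -0.05 ± 0.05 for cyp-35B2 and 0.05 ± 0.08 for cyp-35B3, and 0 of 3 passed the threshold in limma. At an unadjusted p under 0.05, and by robust eBayes, the count was also 0. The gene cyp-35B1 is known as a target that is raised in long-lived daf-2 mutants through the FOXO factor DAF-16. Its ratios were -0.15, -0.68 and -0.35 (adjusted p = 0.13 in limma). For cyp-35B3 the values were -0.03, 0.04 and 0.13, on both sides of 0. The gene cyp-35D1 stood at 0.07, 0.40 and 0.02 (mean 0.16 ± 0.20, adjusted p = 0.538). On each array the cyp-35A mean was above the cyp-35B mean, which was -0.07, -0.25 and -0.08.

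Subfamilies were compared by their mean over genes on each array. Every count of called genes within a subfamily stands beside 15.8% higher and 16.1% lower among all probes. With 3 arrays an exact sign-flip test cannot go below p = 0.25, so the differences between subfamilies are described and not tested. Among the 9 subfamilies with at least 3 genes tested, which hold 51 of the members, cyp-35A was the highest on every array. Its lowest array mean of 1.00 lay above the highest array mean of any of the other 8, which was 0.50 for cyp-25A on prep 3. At the other end were cyp-33E, with array means between -0.73 and -0.60, and cyp-33C, between -0.72 and -0.40. These did not overlap the array means of cyp-13A, which lay between -0.37 and -0.17. The cyp-33E means rest on cyp-33E1 alone. By the median over genes cyp-33E stood at -0.12, above cyp-13A at -0.20. The means of cyp-14A (-0.14 to 0.33), cyp-25A (-0.10 to 0.50), cyp-29A (-0.02 to 0.17) and cyp-34A (-0.19 to 0.01) overlapped each other and covered 0.

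**Figure D2:**
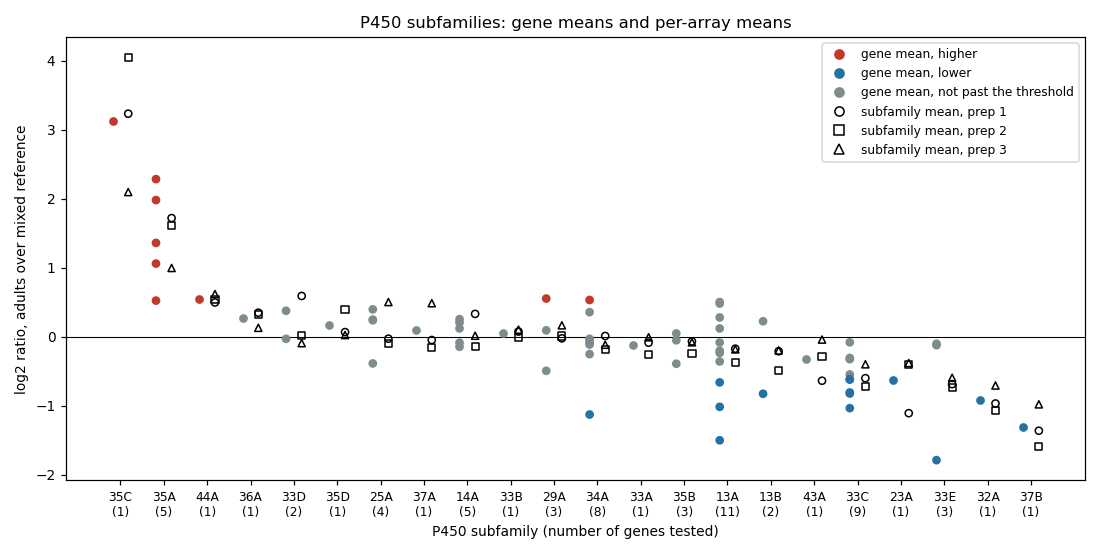
P450 subfamilies in order of their mean log2 ratio (vertical axis, adults over mixed reference), with the number of genes tested in brackets. Filled points are gene means coloured by the call in limma, and open symbols are the subfamily's mean on each prep; the array means of 35A (1.00 to 1.72) lie above those of every other subfamily with at least 3 genes.

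The cyp-33C subfamily was the most uniform of the lower groups, with an SD over its gene means of 0.298 against 0.623 for cyp-13A and 0.968 for cyp-33E. All 9 of its tested genes had a mean below 0, from -1.04 ± 0.18 for cyp-33C7 to -0.08 ± 0.40 for cyp-33C9. Of the 9, 5 were lower past the threshold and 0 higher, against 16.1% and 15.8% of all probes. The ratios of cyp-33C7 were -0.99, -1.23 and -0.88 (2.05-fold lower, adjusted p = 0.00119 in limma), with a narrow range over the preps. For cyp-33C9 they were -0.06, -0.49 and 0.31, on both sides of 0. The others past the threshold were cyp-33C3 (-0.82 ± 0.28), cyp-33C5 (-0.81 ± 0.17), cyp-33C8 (-0.62 ± 0.33) and cyp-33C6 (-0.62 ± 0.13). Without prep 2, 3 of the 9 passed, since cyp-33C6 (adjusted p = 0.0944 in limma) and cyp-33C8 (0.172) were lost. The call of cyp-33C8 also ended without prep 1 (adjusted p = 0.0624), and that of cyp-33C6 without prep 3 (0.0573). The gene cyp-33C4 missed the threshold (-0.55 ± 0.45, adjusted p = 0.0603) with ratios of -0.18, -1.05 and -0.42, and passed as lower without prep 1 (adjusted p = 0.0215), after scaling (0.044) and after quantile normalization (0.023).

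In the cyp-33E subfamily a single gene was low. The lowest of all members, cyp-33E1, had log2 ratios of -2.28, -1.82 and -1.26 (mean -1.79 ± 0.51, 3.45-fold lower, adjusted p = 0.000143 in limma). It ranked 245, 537 and 527 from the bottom of the 19710 probes. The gene cyp-33E2, which encodes an enzyme that turns polyunsaturated fatty acids into eicosanoids and is known from the pharynx, had 0.43, -0.43 and -0.31 (mean -0.10 ± 0.47, adjusted p = 0.757). The values of cyp-33E2 lay on both sides of 0 and did not overlap those of cyp-33E1. The third gene, cyp-33E3, stood at -0.12 ± 0.15. The remaining genes of the number 33 family, cyp-33A1, cyp-33B1, cyp-33D1 and cyp-33D3, had means between -0.12 and 0.38, and 0 of 4 passed in limma (also 0 at an unadjusted p under 0.05 and by robust eBayes).

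The cyp-13A subfamily, which resembles the drug-metabolising human CYP3A enzymes, was the largest, with 11 genes, and spanned 2.00 log2 units between its members. Its lowest gene, cyp-13A1, had ratios of -1.74, -1.71 and -1.06 (mean -1.50 ± 0.39, 2.83-fold lower, adjusted p = 0.000246 in limma). For cyp-13A4 they were -0.70, -1.02 and -1.33 (mean -1.02 ± 0.32, adjusted p = 0.00194) and lowest on prep 3. The third lower gene, cyp-13A6, stood at -0.66 ± 0.40, and its call ended without prep 1 (adjusted p = 0.0766) and without prep 2 (0.131).

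At the high end of the same subfamily was cyp-13A7, known to be induced by the antibiotic rifampicin. Its ratios of 0.81, 0.42 and 0.28 were above 0 on every array (mean 0.50 ± 0.27), and its adjusted p of 0.0557 in limma just missed the threshold. It passed as higher without centring (0.0438), after scaling (0.036) and after quantile normalization (0.022). The gene cyp-13A10 was uneven, at 1.18, -0.29 and 0.55 (mean 0.48 ± 0.74, adjusted p = 0.176), and passed as higher without prep 2 (adjusted p = 0.0149). The gene cyp-13A12, known for its role in the locomotor response to returning oxygen, stood at -0.23 ± 0.26 and did not pass. Of the related cyp-13B genes, cyp-13B1 was lower (-0.83 ± 0.32, adjusted p = 0.00606), and cyp-13B2 stood at 0.22 ± 0.34.

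In the cyp-34A subfamily 1 of 8 tested genes was higher and 1 lower. The lower gene was cyp-34A9, which like cyp-35B1 is known as a gene raised in daf-2 mutants. Its ratios were -0.68, -1.53 and -1.17 (mean -1.13 ± 0.43, 2.18-fold lower, adjusted p = 0.0016 in limma). The higher gene, cyp-34A5, had 0.64, 0.30 and 0.66 (mean 0.53 ± 0.21, adjusted p = 0.0389), and it failed to pass with prep 1 (0.0693), prep 2 (0.0655) or prep 3 (0.245) left out. The values of these 2 genes did not overlap, while the other 6 tested had means between -0.25 and 0.36. The gene cyp-34A8 had values on preps 1 and 2 alone (0.49 and 0.02). Fitted on those 2 arrays its mean was 0.26 (adjusted p = 0.456 in limma).

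Among the P450 genes that resemble the fatty acid hydroxylases of the human CYP4 family, 2 were lower and 1 higher. Lower were 1 of 2 tested cyp-37 genes and the 1 tested cyp-32 gene, and higher was 1 of 3 tested cyp-29 genes. Among all probes 16.1% were lower and 15.8% higher. The gene cyp-37B1 had ratios of -1.36, -1.59 and -0.98 (mean -1.31 ± 0.31, 2.48-fold lower, adjusted p = 0.000421 in limma). Its relative cyp-37A1 had -0.05, -0.15 and 0.49 (mean 0.09 ± 0.34, adjusted p = 0.755). The values of these genes did not overlap. The gene cyp-32A1 was lower at -0.97, -1.07 and -0.71 (mean -0.92 ± 0.19, adjusted p = 0.00246). In the cyp-29A subfamily cyp-29A2 was higher at 0.58, 0.46 and 0.62 (mean 0.55 ± 0.08, adjusted p = 0.0282). Its call ended without prep 2 (adjusted p = 0.0935) and without prep 3 (0.181), although the 3 values lie close together. The gene cyp-29A3, which like cyp-33E2 encodes an eicosanoid-forming enzyme, had -0.90, -0.43 and -0.15 (mean -0.49 ± 0.38, adjusted p = 0.0739), and passed as lower after quantile normalization (0.0396). The gene cyp-29A4 stood at 0.09 ± 0.13.

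Genes that are alone in their subfamily went both ways. The gene cyp-44A1, which encodes the mitochondrial-type P450 of the worm, was higher at 0.50, 0.54 and 0.62 (mean 0.55 ± 0.06, 1.47-fold, adjusted p = 0.028 in limma). Its call ended without prep 2 (adjusted p = 0.124) and without prep 3 (0.184). The gene cyp-23A1 was lower at -1.11, -0.40 and -0.38 (mean -0.63 ± 0.41, adjusted p = 0.031), farthest from 0 on prep 1, and its call ended without that prep (0.106). The gene cyp-36A1, known to act downstream of the hypoxia factor HIF-1 in egg laying, stood at 0.26 ± 0.12, and cyp-43A1 at -0.32 ± 0.30, and neither passed.

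Of the 5 cyp-14A genes and the 4 cyp-25A genes, 0 passed the threshold in limma. At an unadjusted p under 0.05 and by robust eBayes the count was also 0. Means ran from -0.15 ± 0.41 for cyp-14A1 to 0.25 ± 0.09 for cyp-14A2. The values of cyp-14A1 were 0.26, -0.56 and -0.14, and those of cyp-14A2 were 0.36, 0.23 and 0.18. In the cyp-25A subfamily the means ran from -0.39 ± 0.41 for cyp-25A6 to 0.40 ± 0.45 for cyp-25A3. The latter had 0.60, -0.12 and 0.71, and the former -0.78, -0.42 and 0.04. Both lay on either side of 0.

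The hormone enzyme gene daf-9 did not pass the test. Its ratios were 0.82, -0.26 and -0.04, positive on prep 1 alone (mean 0.18 ± 0.57, adjusted p = 0.604 in limma). Without prep 1 the mean was -0.15. The other 8 genes listed for the dafachronic acid pathway act in sterol supply, hormone synthesis and response, and 1 was higher and 2 lower (12.5% and 25%, against 16.1% and 17.8% of all genes). Without preps 1, 2 and 3 in turn, 4, 1 and 1 of them were lower, and 2 were higher without prep 3, the added one being 1 probe of hsd-1. The gene daf-36, whose Rieske oxygenase takes the first step from cholesterol, had 1.48, 0.78 and 1.12 (mean 1.13 ± 0.35, adjusted p = 0.00119). The gene dhs-16, which encodes a hydroxysteroid dehydrogenase, was lower at -0.60, -0.63 and -0.60 (mean -0.61 ± 0.02, adjusted p = 0.0178). Every daf-36 value lay above 0 and every dhs-16 value below it. The gene dhs-16 missed the threshold with prep 2 (adjusted p = 0.0951) or prep 3 (0.101) left out.

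The sterol transport gene ncr-2, a counterpart of the Niemann-Pick C1 gene, was lower at -2.07, -1.13 and -0.86 (mean -1.35 ± 0.64, adjusted p = 0.00128 in limma). Its relative ncr-1 stood at -0.44 ± 0.31 and did not pass. The hormone receptor gene daf-12 had -0.30, -0.90 and -0.38 (mean -0.53 ± 0.33), just short of the threshold with an adjusted p of 0.0522. It passed as lower without prep 1 (adjusted p = 0.0298), after scaling (0.0374) and after quantile normalization (0.021), and ncr-1 without prep 1 (0.0402) and after quantile normalization (0.039). The corepressor gene din-1 (0.46 ± 0.25) and the sterol methyltransferase gene strm-1 (0.10 ± 0.14) did not pass either, though din-1 passed as higher after quantile normalization (adjusted p = 0.0322). The gene hsd-1, averaged over its 2 probes, was the most uneven at -0.30, 1.52 and -0.63.

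P450 enzymes need electron partners, and of the 3 listed 0 were higher in limma, against 16.1% of all genes. The count was also 0 at an unadjusted p under 0.05 and by robust eBayes. Of the 3, 1 was lower (33.3%, against 17.8% of all genes). The gene emb-8, which encodes the NADPH-cytochrome P450 reductase, had 0.28, -0.09 and 0.43 (mean 0.21 ± 0.27, adjusted p = 0.437 in limma). The cytochrome b5 gene cytb-5.2 was lower at -1.11, -2.03 and -1.61 (mean -1.58 ± 0.46, adjusted p = 0.000238). Its relative cytb-5.1 stood at -0.39 ± 0.24 and did not pass. The values of the reductase gene lay above those of cytb-5.2 on every array. Together with cyp-31A enzymes, emb-8 is known for the lipid layer of the eggshell. Of the 5 genes listed for that layer, 2 were higher (40%, against 16.1% of all genes) and 0 lower (against 17.8%). The higher ones were perm-1 (1.23 ± 0.41) and dgtr-1 (1.21 ± 0.54), while pod-2 (0.53 ± 0.45), fasn-1 (0.34 ± 0.27) and emb-8 did not pass. The gene pod-2 passed as higher without prep 2 (adjusted p = 0.0367) and after quantile normalization (0.036).

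Of 11 measured genes listed as transcription regulators tied to P450 genes, 0 were higher and 3 lower (27.3%) in limma, against 16.1% and 17.8% of all genes. At an unadjusted p under 0.05, 1 was higher and 4 lower, and by robust eBayes 0 and 3. The prolyl hydroxylase gene egl-9 (-1.66 ± 0.35, adjusted p = 0.00012) and pqm-1 (-1.61 ± 0.14, adjusted p = 8.46e-05), a zinc-finger factor of the intestine, were lowest, followed by hif-1 (-0.73 ± 0.28, adjusted p = 0.0101), which was lost without prep 2 (0.0512). The remaining 8, which include the xenobiotic receptor gene nhr-8 and the gene ahr-1, did not pass. Of these, aha-1 (-0.47 ± 0.19), the partner gene of ahr-1, passed as lower after scaling (adjusted p = 0.0422) and quantile normalization (0.0279). The highest of them was skn-1 (0.44 ± 0.40, adjusted p = 0.112), the oxidative stress factor gene.

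The conjugating enzymes that act after P450s in detoxification also went both ways. Of 60 UDP-glucuronosyltransferase genes 12 were higher and 15 lower (20% and 25%), against 16.1% and 17.8% of all genes, with a median of 0.05, from 2.92 ± 0.37 for ugt-22 to -2.46 ± 0.80 for ugt-18. Of 32 glutathione S-transferase genes 2 were higher and 9 lower (6.25% and 28.1%, against the same shares of all genes), with a median of -0.04, from gst-1 (0.82 ± 0.72) to gst-3 (-2.19 ± 0.68). Without prep 1, 0 glutathione S-transferase genes were higher in limma, and gst-1 had an adjusted p of 0.116. No test of a difference between these lists was made.

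**Figure D3:**
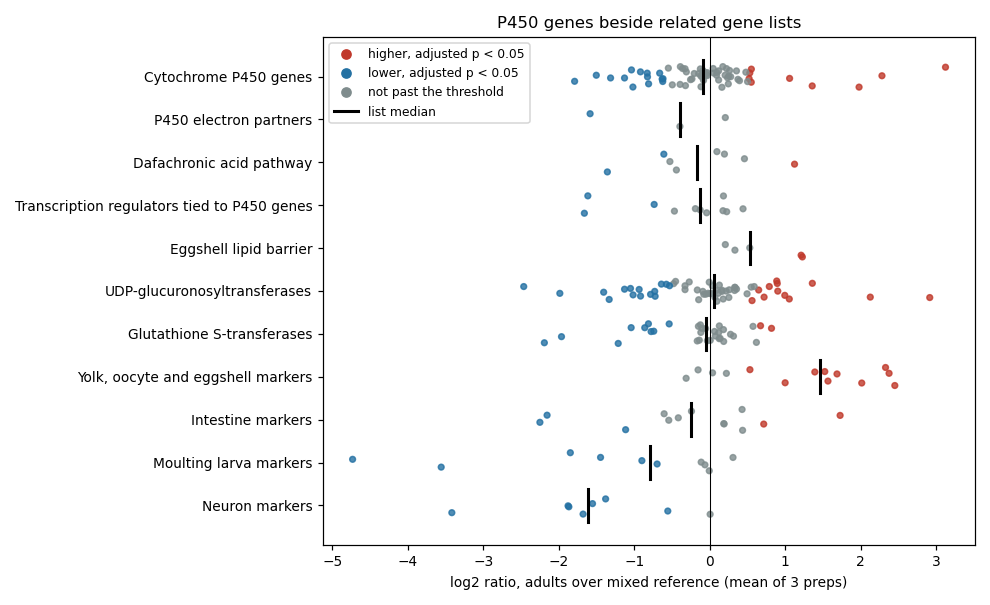
Mean log2 ratio over 3 preps (horizontal axis, adults over mixed reference) for P450 genes and the related lists, 1 point per gene coloured by the call in limma, shifted vertically at random to part the points; black bars are list medians. The P450 median is -0.08, and those of the yolk, oocyte and eggshell list (1.46) and the neuronal list (-1.61) lie far to either side.

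Many worm P450 genes lie beside one another, and the order of genes in WBcel235 was set beside the ratios. Genes were put in 1 run where at most 5 other genes lay between neighbours. The run of cyp-33C4, cyp-33C3, cyp-33C5, cyp-33C6 and cyp-33C7 was the most even of the runs with 4 or more genes tested and any call. In it 4 of 5 were lower and 0 higher, against 16.1% and 15.8% of all probes. The means lay between -1.04 and -0.55. Binding of cyp-33C transcripts to the probes of similar cyp-33C genes was not analysed here, in this run or in the subfamily. The run from cyp-35A5 through the cyp-35B genes to cyp-34A10 was the least even. Its 9 tested genes spanned 2.49 log2 units. Higher were cyp-35A5 and cyp-34A5 and lower was cyp-34A9, against 15.8% and 16.1% of all probes, and 6 did not pass the threshold.

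The cyp-13A run was also mixed, with 3 of 8 tested genes lower and 0 higher, against 16.1% and 15.8% of all probes. These shares stand beside the counts of the other runs and pairs too. The cyp-13A run spanned 2.00 log2 units. Within it cyp-13A6 (-0.66 ± 0.40) and its neighbour cyp-13A7 (0.50 ± 0.27) did not overlap. The run of cyp-14A1 to cyp-14A4 held no gene past the threshold, with means between -0.15 and 0.25. The other cyp-35A genes lie in pairs elsewhere. In the pair cyp-35A1 and cyp-35A2 both were higher, but their values, 0.29 to 0.68 and 1.47 to 2.56, did not overlap.

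**Figure D4:**
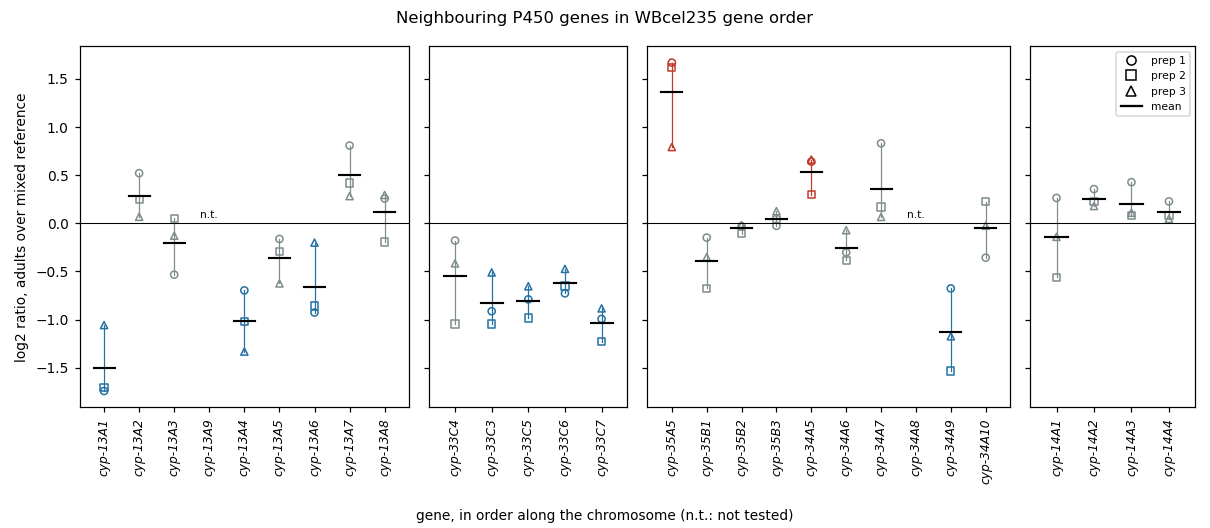
Log2 ratio (vertical axis, adults over mixed reference) of P450 genes in the 4 runs of neighbours with at least 4 genes tested, in WBcel235 gene order along the horizontal axis. Open symbols are the preps, coloured red where the gene was higher, blue where lower and grey where it did not pass in limma, and black bars are means; the cyp-33C genes all lie below 0, while the run that starts with cyp-35A5 spans 2.49 log2 units.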

How the data were processed

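The authors deposited a table of log2 ratios for 20000 probes with 1 column for each of the 3 arrays, and all columns were used. For its normalization, filtering, centring and direction, no account is given in the sources used here. Its base was read from the values: as log2 ratios 100% (ratios under 3) correspond to a multiple of 0.001 within 0.00005, against 10.7% as natural logs and 8.89% as base 10. The deposited medians were 0.019, 0.072 and -0.0087 on preps 1, 2 and 3. No filter on dim spots was possible, since spot brightness was not used here, and the number of arrays limits the precision.

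Each array was centred on its median. An intercept was fitted to the 19710 probes with a value on all 3 arrays (limma 3.58.1 in R 4.3.3, lmFit and eBayes, 2 residual and 8.94 prior degrees of freedom) and tested against 0, two-sided, with Benjamini-Hochberg adjustment over all probes and a threshold of 0.05. The script was tested on simulated data. The median standard error was 0.182. A gene with several probes is their mean with the largest adjusted p, and counts as past when at least 1 probe passes. Symbols were updated through the RefSeq table by gene ID; all 68 members matched. No protein or promoter sequences are shown.

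The members and lists were chosen with earlier results of these data known. Per-array values are given for daf-9, for members past the threshold with a mean log2 ratio of at least 1 in size, and for the highest and lowest gene of each subfamily with at least 3 genes; the list genes named are the highest and lowest past the threshold of each list, and all of the electron partner and dafachronic acid lists. Some other list genes are named because a call was close or changed. Values of other members, shown where a call was close or changed, were chosen after they were seen. Alternatives were no centring, scaled or quantile-normalized arrays, probes on at least 2 arrays, 1 row per gene, robust eBayes, and leaving out each prep.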

Additional observations from a re-analysis of the deposited data

How the results depend on the processing

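Of the 23 P450 genes past the threshold, 15 passed under all 9 alternatives, and of the 44 others 40 passed under none. The counts of P450 genes were 9 to 10 higher and 14 to 16 lower under the 6 alternatives that kept all preps. With a prep left out they were 5 to 7 higher and 11 to 13 lower. The cause was not tested; fewer arrays were fitted. No called member changed sign under the 6 alternatives that kept all preps. With a prep left out none could, since all 23 have the same sign on all 3 arrays. The subfamily means moved by less than their SD over the arrays. With a prep left out this is fixed by arithmetic, so it is no sign of stability. Means that changed sign lay near 0: those of cyp-25A (-0.066) and cyp-29A (-0.0070) without prep 3, of cyp-14A (-0.061) without prep 1, and of 10 members that did not pass, with 1 prep left out. The lowest and highest means were -0.10 and 0.22 for cyp-37A1, -0.19 and 0.10 for cyp-34A10, -0.15 and 0.39 for daf-9, -0.35 and 0.0617 for cyp-14A1, -0.15 and 0.0752 for cyp-34A1, -0.32 and 0.13 for cyp-14A5, -0.19 and 0.0793 for cyp-33D1, -0.28 and 0.12 for cyp-33C9, -0.37 and 0.0624 for cyp-33E2, and -0.38 and 0.12 for cyp-34A2. Dafachronic acid genes were 2 higher and 4 lower after quantile normalization, and with a prep left out 1 to 2 higher and 1 to 4 lower. Glutathione S-transferase genes were higher for 4 members without centring and after quantile normalization, and for 0 to 3 with a prep left out. Intestinal markers were lower for 5 after quantile normalization and for 3 to 5 with a prep left out. No paired analysis was possible because the samples form 1 group. Signal over background was not analysed here, so dim probes limit the values to an unknown degree.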
